A study of Arabidopsis thaliana with 18 samples.

Results

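The WRKY family of Arabidopsis thaliana transcription factors was followed across 18 RNA-seq libraries of seedlings that were kept at 22 °C, held in long heat or returned from it. Members were the nuclear genes of the deposited table whose description contains the word WRKY, 72 of 37916 genes. Of these, 67 carry the WRKY domain in the table's own Pfam annotation and 5 do not (AT1G64140, AT3G32090, AT3G56390, AT4G31805 and AT5G46310). AT4G31805 is POLAR, a gene of the stomatal lineage, so the label WRKY does not hold for it. Another 5 genes with the domain have descriptions without the word and stayed outside the 72 (WRKY1, WRKY16, WRKY19, WRKY52 and WRKY63). A mean of at least 1 TPM (a length-scaled share of a library's transcripts) over the 18 libraries was asked of a gene before it was tested. This was met by 55 members, 53 of them with the domain, and by 21831 genes in all. Because a member could pass through the one group in which it is high, counts over the 55 are not counts over the family.

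WRKY proteins are a plant family of DNA-binding factors named after a conserved stretch of their domain, which folds with a zinc finger and binds the W-box, a promoter element with the core TTGAC. Group I proteins have a pair of such domains, groups IIa to IIe and III have one each and differ in the zinc finger and in neighbouring motifs. Many WRKY genes are switched on quickly by wounding, pathogens, salicylic acid, oxidative stress or age. MAP kinases phosphorylate several of the proteins, VQ-motif proteins bind them, and many WRKY promoters carry W-boxes themselves, so that members act on each other. In Arabidopsis WRKY25, WRKY26, WRKY33 and WRKY39 are known for parts in thermotolerance, and WRKY6, WRKY45, WRKY53 and WRKY75 for parts in leaf senescence.

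Seedlings with an insertion in PRMT5 (PRMT5 T-insert in the labels, here prmt5) and wild type (WT) were grown on agar medium with sucrose. In each genotype 3 libraries came from plants kept at 22 °C, 3 from plants after 3 days at 37 °C (heat) and 3 from plants sampled 24 h after that heat (recovery). The labels name 1 insertion and give no plant age, recovery temperature or time of day. PRMT5 encodes an arginine methyltransferase whose known substrates include splicing proteins. Its transcript ranged from 2.32 to 8.87 TPM in prmt5 libraries, against 25.28 to 47.72 TPM in WT libraries. Whether a group's libraries are separate cultures is not in the labels, so p-values measure the spread between libraries, which may be technical. Changes are differences of log2(TPM + 1), given with their standard error, and "higher", "lower", "rose" and "fell" mean an adjusted p under 0.05 from limma over all tested genes. TPM is a share of each library, and sequencing depth is unknown.

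Marker levels and single libraries moved with the conditions. The summed TPM of 3 shoot genes (RBCS1A, LHCB1.3 and CA1) was 1627.0 to 1785.1 at heat and 715.2 to 1529.2 at recovery in prmt5, against 27059.6 to 32166.1 at 22 °C. In WT it was 1590.0 to 3439.1 at heat and 3296.3 to 6462.4 at recovery, against 25518.1 to 29130.1 at 22 °C. The summed TPM of 3 root genes (PYK10, COBL9 and WOX5) was 42.5 to 50.1 at heat and 1408.1 to 1533.6 at recovery in prmt5, against 1523.7 to 2016.8 at 22 °C, and 48.7 to 98.9 at heat and 905.3 to 1647.4 at recovery in WT, against 1236.5 to 3031.7 at 22 °C. PYK10 made up most of these sums. WOX5 went the other way in heated WT, at 2.8, 7.52 and 4.84 TPM, against 2.59, 2.39 and 2.47 TPM in WT at 22 °C. Of a pair of flower genes (AP3 and PI), the sum was at most 8.4 TPM, in prmt5 at recovery, and of a pair of seed storage genes (SESA1 and CRA1) at most 41 TPM, in heated WT, and 4.4 TPM in heated prmt5. The flower genes differed. AP3 averaged 6.09 TPM in prmt5 and 4.96 TPM in WT at recovery, against 0.153 and 0.137 TPM at 22 °C. PI averaged at most 0.703 TPM in any group. Fewer cells of a type and less RNA per cell cannot be told apart in whole seedlings, and the part of these shifts in the WRKY results was not tested. WT library 3 at 22 °C stood apart, with PYK10 at 1233.63 TPM against 3026.1 and 2903.9 TPM in its group, and it was the lowest of its group for 33 of the 55 tested members. Library 3 of prmt5 at recovery stood apart as well, with 0.862% of TPM in mitochondrion-encoded genes against 0.26% and 0.249% in its group, and it was the lowest of its group for 41 of the 55. The same counts over all tested genes were not made. Both libraries also had the lowest median-ratio scaling factor of their group, so genes in general tended to read lower there. The factors were 0.8487 against 0.936 and 0.8978 in WT at 22 °C, and 1.068 against 1.1577 and 1.0852 in prmt5 at recovery.

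The family's summed transcript level followed the condition. The 67 members with the domain added up to 324.2, 334.4 and 385.3 TPM in prmt5 at 22 °C, to 651.1, 594.4 and 621.3 TPM at heat and to 2531.1, 2538.5 and 1908.7 TPM at recovery. In WT the sums were 454.1, 446.5 and 368.7 TPM at 22 °C, 643.7, 732.6 and 737.6 TPM at heat and 1417.6, 1298.7 and 1170.2 TPM at recovery. The 3 prmt5 recovery libraries therefore lay above every other library, library 3 included. Of the 72 members, 55 averaged at least 1 TPM in prmt5 at recovery and 57 in WT at recovery, against 47 in prmt5 and 50 in WT at 22 °C. Members at 10 TPM or more numbered 36 in prmt5 and 35 in WT at recovery, against 14 in prmt5 and 18 in WT at 22 °C. The same counts over all genes were not made. Genes above 0 TPM also became more numerous in general, with 26109 to 27251 per library at recovery against 23641 to 24149 at 22 °C. The 5 most abundant members with the domain made up 42.4% of the sum in prmt5 at recovery (WRKY33, WRKY18, WRKY75, WRKY6 and WRKY15). They made up 31.6% in WT at recovery, where they were WRKY15, WRKY18, WRKY60, WRKY11 and WRKY46. At 22 °C WRKY15, WRKY11, WRKY7 and WRKY39, all of group IId, were the most abundant members with the domain in both genotypes. Over the 55 tested members, recovery was the condition with the highest mean for 47 in prmt5 and for 45 in WT. This was not counted over all tested genes, and some members may have passed the filter only through their recovery values.

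**Figure D1:**
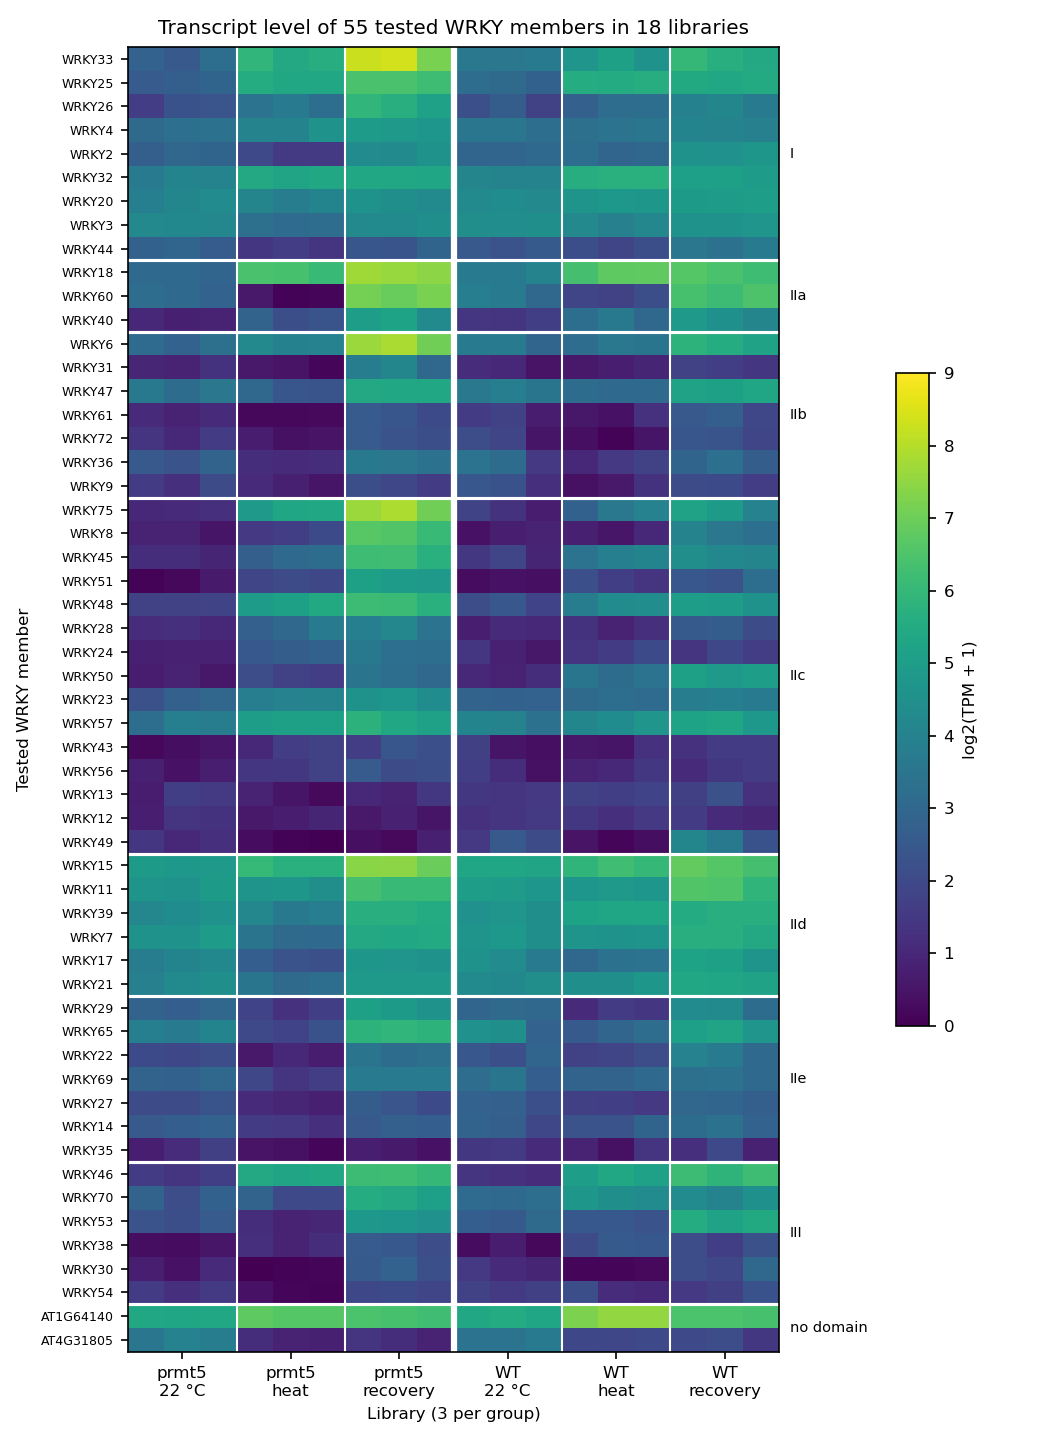
Level of each of the 55 tested members, as log2(TPM + 1), in the 18 libraries (columns, 3 per group, prmt5 left and WT right; 22 °C, heat and recovery in order). Rows are grouped by WRKY group (I to III, and 2 members without the domain) and ordered within it by the recovery change in prmt5; most rows are brightest in the recovery columns, and WRKY60 is darkest at heat.

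Because many members moved together at recovery and WRKY proteins bind W-boxes, the 300 bases before the annotated start of each gene were searched on both strands for the core TTGAC, for TTGACC or TTGACT, and for GAANNTTC, a minimal form of the heat shock element. Sequences are from the RefSeq annotation of TAIR10.1, and all 67 members with the domain were found there. A TTGAC core stood at least 1 time in 59.7% of these windows, against 50.4% of the windows of all 27443 protein-coding genes, and at least 2 times in 31.3% against 17.9%. TTGACC or TTGACT, which contain the core, stood in 41.8% against 32.3%, and GAANNTTC in 16.4% against 11.5%. These shares are descriptions with no test, and a match of letters is not a binding site. The windows of 5 members are shown 5′ to 3′ on the gene's strand, with every TTGAC core, or GTCAA where it lies on the other strand, in capitals. WRKY75, WRKY8 and WRKY33 are shown because they had the largest recovery changes in prmt5, WRKY60 for its fall at heat, and WRKY29, like WRKY32, has 4 cores, the most found. They were chosen with their values known, and no other annotated gene overlaps these windows.
WRKY33 (chr2:16107935-16108234, plus strand): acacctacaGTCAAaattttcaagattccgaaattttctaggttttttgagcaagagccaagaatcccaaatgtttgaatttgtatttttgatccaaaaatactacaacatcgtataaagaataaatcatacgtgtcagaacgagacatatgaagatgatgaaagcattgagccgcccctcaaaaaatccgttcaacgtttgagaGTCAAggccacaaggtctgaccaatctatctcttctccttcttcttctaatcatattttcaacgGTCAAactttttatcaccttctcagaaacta
WRKY75 (chr5:4151202-4151501, minus strand): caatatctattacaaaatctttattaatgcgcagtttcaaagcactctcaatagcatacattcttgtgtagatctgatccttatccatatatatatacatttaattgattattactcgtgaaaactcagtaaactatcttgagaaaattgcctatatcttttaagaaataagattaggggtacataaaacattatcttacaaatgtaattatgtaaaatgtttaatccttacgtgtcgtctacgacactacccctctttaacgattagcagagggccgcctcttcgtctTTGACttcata
WRKY8 (chr5:18804057-18804356, minus strand): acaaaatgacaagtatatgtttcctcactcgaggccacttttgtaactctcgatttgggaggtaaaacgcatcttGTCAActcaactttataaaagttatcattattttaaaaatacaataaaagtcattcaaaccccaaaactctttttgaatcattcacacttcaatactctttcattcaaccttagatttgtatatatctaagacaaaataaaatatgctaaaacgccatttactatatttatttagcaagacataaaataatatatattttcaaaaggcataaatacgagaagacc
WRKY29 (chr4:12291332-12291631, plus strand): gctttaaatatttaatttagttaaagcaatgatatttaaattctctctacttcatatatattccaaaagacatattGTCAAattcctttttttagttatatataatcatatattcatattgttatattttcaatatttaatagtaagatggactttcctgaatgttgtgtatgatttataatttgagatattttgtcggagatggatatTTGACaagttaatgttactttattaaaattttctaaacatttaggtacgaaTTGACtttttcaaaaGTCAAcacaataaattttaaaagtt
WRKY60 (chr2:10629362-10629661, plus strand): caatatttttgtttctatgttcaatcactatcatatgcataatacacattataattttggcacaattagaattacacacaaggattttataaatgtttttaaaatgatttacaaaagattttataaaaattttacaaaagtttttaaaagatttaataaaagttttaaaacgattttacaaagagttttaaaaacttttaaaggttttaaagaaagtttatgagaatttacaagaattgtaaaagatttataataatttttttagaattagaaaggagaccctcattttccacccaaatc
The WRKY33 window has 3 cores, at 31, 95 and 291 bases before the start, the WRKY75 window has 1 core at 11 bases and the WRKY8 window 1 at 225 bases. The WRKY29 window has 4, and the WRKY60 window has none.

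After 3 days of heat members moved in both directions, as genes in general did. In prmt5, 24 of the 55 tested members rose (43.6%) and 27 fell (49.1%) against 22 °C, where 45.5% of all tested genes rose and 36% fell. In WT 21 members rose (38.2%) and 16 fell (29.1%), where 49.8% of all tested genes rose and 25.7% fell. The median change of the members was -0.38 in prmt5 and 0.01 in WT, beside 0.19 and 0.35 over all tested genes. Median-ratio scaling brings the median over all genes to 0.062 and 0.001, and with it the WT split turned to 17 higher and 22 lower (16 and 26 after quantile normalization), so the direction of the WT family at heat depends on the scaling. Of the 44 tested members at 1 TPM or more in both genotypes at 22 °C, 15 rose and 25 fell in prmt5, and 16 rose and 15 fell in WT.

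Counts by family group were uneven at heat. Over all tested genes 45.5% rose and 36% fell in prmt5, and 49.8% rose and 25.7% fell in WT. In heated prmt5, 12 of the 15 tested group IIc members rose and 2 fell, with a median change of 1.295. None of the 7 tested group IIe members rose and 7 fell, with a median of -1.255, and in group IIb 1 of 7 rose and 6 fell. In heated WT, 8 of 15 group IIc members rose, a share near that of all tested genes, and 1 fell. There 4 of 7 group IIe members and 4 of 7 group IIb members fell with none rising. The WT rises of WRKY57, WRKY23 and WRKY24 in group IIc ended under both other scalings (0.198, -0.007 and 0.475 with median-ratio scaling), while those of the other 5 held. Group IIe holds WRKY22 and WRKY29, which act below MAP kinases in flagellin signalling. WRKY29 stood at 2.51, 1.42 and 2.19 TPM in heated prmt5 and 6.21, 5.48 and 6.89 TPM in prmt5 at 22 °C (-1.26 ± 0.25, adjusted p = 0.000226), and at 1.13, 2 and 1.69 TPM in heated WT and 6.72, 7.54 and 7.32 TPM in WT at 22 °C (-1.67 ± 0.25, adjusted p = 1.7e-05). Its groups did not overlap in either genotype. AT4G23560, on the opposite strand at WRKY29, averaged 0.337 to 1.48 TPM over the prmt5 groups and 0.19 to 0.363 TPM over the WT groups, and reads from the overlap cannot be told apart. The WRKY groups were assigned by gene name after the published classification, and the counts per group carry no test. Of the 5 tested members that averaged under 1 TPM at 22 °C in both genotypes, WRKY8, WRKY24, WRKY43 and WRKY51 are in group IIc. They had little room to fall and may have passed the filter through heat or recovery, which may tilt the group IIc counts towards rises. Counts by group without them were not made.

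**Figure D2:**
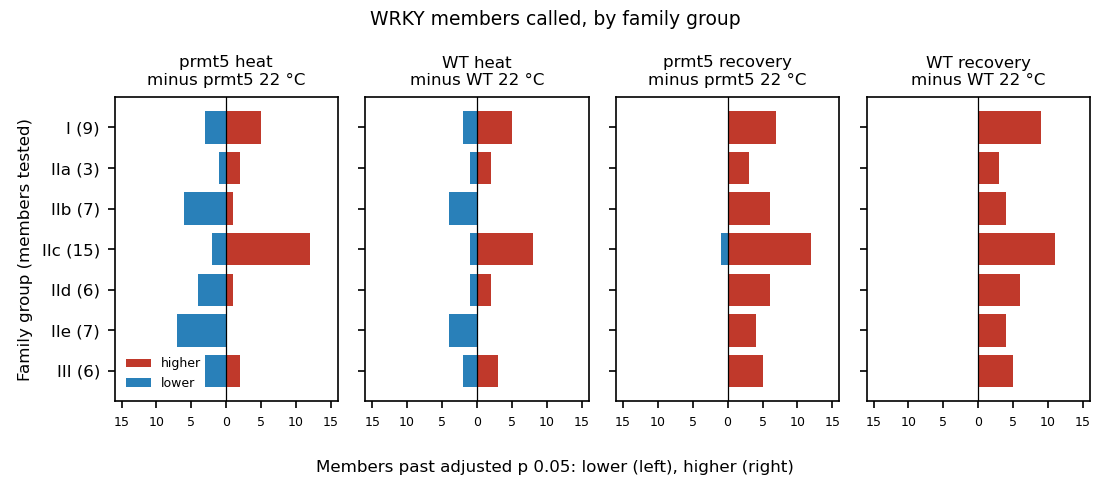
Number of tested members past an adjusted p of 0.05, higher to the right and lower to the left, by WRKY group (rows, with the number of members tested) in 4 comparisons with 22 °C (panels, prmt5 left of WT). At heat groups IIb and IIe lie mostly to the left and IIc to the right; at recovery almost all bars point right.

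WRKY75, WRKY46 and WRKY48 had the largest rises at heat in prmt5, and WRKY46, WRKY18 and WRKY25 in WT. WRKY75, a group IIc regulator of phosphate starvation and senescence, reached 27.2, 37.9 and 40.4 TPM in heated prmt5, against 1.03, 1.17 and 1.31 TPM at 22 °C (4.04 ± 0.35, adjusted p = 2.52e-08). In WT it stood at 6.01, 11.1 and 15.04 TPM at heat and 2.62, 1.51 and 0.64 TPM at 22 °C (2.17 ± 0.35, adjusted p = 4.08e-05). WRKY46, a group III member known from drought and salicylic acid responses, rose in both genotypes. It had 42.6, 37.1 and 40.5 TPM in heated prmt5 against 1.93, 1.65 and 2.18 TPM at 22 °C (3.82 ± 0.12, adjusted p = 1.98e-13), and 31.97, 40.99 and 34.4 TPM in heated WT against 1.64, 1.42 and 1.19 TPM (3.92 ± 0.12, adjusted p = 2.25e-13). The difference between these 2 responses was -0.11 ± 0.17, adjusted p = 0.621, short of the threshold. WRKY48, a group IIc factor known as a repressor of basal defence, had 30.5, 33.4 and 42.9 TPM in heated prmt5 against 2.43, 2.4 and 2.63 TPM (3.38 ± 0.19, adjusted p = 1.45e-10), and 13.2, 19.5 and 20.1 TPM in heated WT against 3.36, 4.45 and 2.48 TPM (2.07 ± 0.19, adjusted p = 8.63e-08). WRKY50, a group IIc factor that binds the PR1 promoter, was among the 5 largest rises in WT, with 10.3, 8.11 and 9.64 TPM at heat and 1, 0.83 and 1.27 TPM at 22 °C (2.35 ± 0.15, adjusted p = 1.37e-09).

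Among the members with the domain that fell at heat in prmt5, WRKY60 had the largest change. This group IIa factor, which forms complexes with WRKY18 and WRKY40, stood in heated prmt5 at 0.54, 0.07 and 0.09 TPM, against 8.34, 7.52 and 6.16 TPM at 22 °C (-2.77 ± 0.20, adjusted p = 2.2e-09). In heated WT it kept 2.68, 2.41 and 3.47 TPM, against 13.3, 12.5 and 7.23 TPM at 22 °C (-1.61 ± 0.20, adjusted p = 2.19e-06). Since log2(TPM + 1) shrinks changes of low values, the fall in prmt5 was -4.75 with a pseudocount of 0.1 in place of 1. WRKY65 of group IIe fell to 3, 2.5 and 3.82 TPM in heated prmt5, against 13.9, 11.96 and 15.7 TPM at 22 °C (-1.86 ± 0.34, adjusted p = 9.46e-05). WRKY17 (-1.64 ± 0.21, adjusted p = 1.97e-06) and WRKY7 (-1.502 ± 0.12, adjusted p = 7.11e-09), a pair of group IId calmodulin-binding factors known as negative regulators of defence, also fell in prmt5. WRKY17 had 5.38, 3.98 and 3.54 TPM in heated prmt5 and 13.2, 15.7 and 17.3 TPM in prmt5 at 22 °C. WRKY7 had 10.12, 7.68 and 7.4 TPM in heated prmt5 and 23.9, 23.4 and 29.4 TPM in prmt5 at 22 °C, while in WT it was 23.98, 23.6 and 24.3 TPM at heat and 24.5, 26.6 and 21.6 TPM at 22 °C, which overlap. In WT the falls past the threshold were led by WRKY49 (-1.68 ± 0.36, adjusted p = 0.000534, and -3.18 with a pseudocount of 0.1), WRKY29, WRKY60, AT4G31805 and WRKY36. WRKY36 had 1.02, 1.82 and 2.34 TPM in heated WT and 9.73, 8.07 and 1.85 TPM in WT at 22 °C, where library 3 is the low one and the groups overlap (-1.29 ± 0.36, adjusted p = 0.00442). That call ended when only these groups were fitted. In WT at 22 °C this library was also low for WRKY65 (22.4, 21.3 and 6.06 TPM), WRKY72 (3.38, 2.70 and 0.43 TPM) and WRKY9 (4.38, 3.79 and 1.32 TPM). Of the root markers it was low for PYK10 and COBL9 (3.01, 2.57 and 0.37 TPM) and not for WOX5 (2.59, 2.39 and 2.47 TPM).

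The members known from thermotolerance did not move as 1 block. WRKY25 and WRKY26, group I factors that promote heat tolerance together with WRKY33, both rose at heat in prmt5 (2.72 ± 0.11, adjusted p = 3.61e-12 and 1.36 ± 0.25, adjusted p = 0.000109). WRKY25 had 46.5, 40.8 and 41.6 TPM in heated prmt5 and 4.95, 5.59 and 6.54 TPM at 22 °C, and in WT 46.2, 45.5 and 48.2 TPM at heat and 8.35, 7.61 and 5.88 TPM at 22 °C (2.54 ± 0.11, adjusted p = 1.66e-11). Heated prmt5 and heated WT overlapped for WRKY25. WRKY26 had 5.71, 8.35 and 8.59 TPM in heated WT and 3.54, 5.28 and 2.46 TPM in WT at 22 °C (0.87 ± 0.25, adjusted p = 0.00512), a call that ended under quantile normalization (0.46). WRKY33, a central factor of camalexin synthesis and of resistance to necrotrophic fungi, stood at 59.4, 41.8 and 48.1 TPM in heated prmt5 and 6.19, 4.73 and 8.42 TPM at 22 °C (2.78 ± 0.27, adjusted p = 8.3e-08). In WT it stood at 24.8, 33.8 and 23.7 TPM at heat and 11.1, 10.9 and 12.1 TPM at 22 °C (1.18 ± 0.27, adjusted p = 0.000885). WRKY39, a group IId factor that promotes heat tolerance, went in opposite directions. It fell to 16.75, 11.55 and 13.56 TPM in heated prmt5, against 16.8, 19.6 and 22.9 TPM at 22 °C (-0.48 ± 0.12, adjusted p = 0.0016), and rose to 36.6, 37.8 and 38.7 TPM in heated WT, against 22.7, 24.8 and 21.4 TPM (0.69 ± 0.12, adjusted p = 7.15e-05). The WT rise was 0.296 under median-ratio scaling and 0.392 after quantile normalization, still past the threshold. The difference between these responses, prmt5 minus WT, was -1.17 ± 0.17, adjusted p = 4.56e-05.

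At recovery almost every tested member that moved had risen above its 22 °C level. In prmt5 44 of 55 rose and 2 fell against 22 °C, where 53.4% of all tested genes rose and 24.7% fell. In WT 43 rose and 1 fell, where 49.8% of all tested genes rose and 17.3% fell. The median change of the members was 1.73 in prmt5 and 1.07 in WT, beside 0.45 and 0.35 over all tested genes, which median-ratio scaling brings to 0.066 and 0.015. After quantile normalization the prmt5 split was 40 higher and 7 lower, and the WT split 36 higher and 2 lower. Under median-ratio scaling the splits were 40 and 6 in prmt5 and 35 and 1 in WT. Of the 44 members at 1 TPM or more at 22 °C in both genotypes, 33 rose and 2 fell in prmt5, and 34 rose and 1 fell in WT. On the deposited TPM scale all 6 tested members of group IId and all 3 of group IIa rose in both genotypes. In group IId the prmt5 calls of WRKY17 and WRKY21 ended under median-ratio scaling (0.238 and 0.180) and quantile normalization (0.175 and 0.125), and the WT call of WRKY17 under median-ratio scaling (0.383). The falls were AT4G31805 in both genotypes and WRKY12 in prmt5. WRKY12, a group IIc regulator of pith cell walls, had 0.52, 0.77 and 0.41 TPM at recovery and 0.67, 1.6 and 1.5 TPM at 22 °C in prmt5, which overlap (-0.51 ± 0.20, adjusted p = 0.0308), and its call ended when only these groups were fitted and without prmt5 library 2 (-0.39) or 3 (-0.42) at 22 °C or library 1 (-0.49) or 3 (-0.43) at recovery.

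The rise in prmt5 was led by WRKY75, WRKY8, WRKY33, WRKY45 and WRKY51. WRKY75 reached 197, 239 and 130.3 TPM in prmt5 at recovery, against 1.03, 1.17 and 1.31 TPM at 22 °C (6.41 ± 0.35, adjusted p = 1.68e-10), and 35.1, 28.6 and 14.8 TPM in WT at recovery, against 2.62, 1.51 and 0.64 TPM (3.38 ± 0.35, adjusted p = 6.42e-07). WRKY8, a group IIc factor known from virus and Botrytis defence, was under 1 TPM at 22 °C in both genotypes (0.44 to 0.88 TPM in prmt5 and 0.37 to 0.81 TPM in WT). At recovery it stood at 100.4, 94.1 and 66.03 TPM in prmt5 (5.66 ± 0.21, adjusted p = 4.43e-12) and at 15.1, 11 and 8.84 TPM in WT (2.94 ± 0.21, adjusted p = 1.47e-08). WRKY33 had the highest mean of the family in prmt5 at recovery, at 311, 335 and 144 TPM (5.09 ± 0.27, adjusted p = 1.07e-10 against 22 °C), although in library 3 WRKY18 (173.27 TPM) and WRKY60 (144.3 TPM) lay above it. For WRKY33 WT had 62.6, 49.5 and 42.7 TPM (2.07 ± 0.27, adjusted p = 6.19e-06). Library 3 was the lowest prmt5 library for WRKY75, WRKY8 and WRKY33, and yet above all 3 WT recovery libraries for each. Without it the prmt5 changes were 6.65 for WRKY75, 5.84 for WRKY8 and 5.47 for WRKY33. The WRKY33 locus overlaps 2 genes on the opposite strand, AT2G38480 and AT2G08965, and whether the authors' counting used strand is not given, so reads from the overlap cannot be told apart. AT2G38480 averaged 16.3 TPM in prmt5 and 11.7 TPM in WT at recovery, and AT2G08965 3.22 and 1.07 TPM.

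WRKY51, a group IIc partner of WRKY50 in jasmonate signalling, rose to 33.6, 30.4 and 28.6 TPM in prmt5 at recovery, against 0.07, 0.13 and 0.56 TPM at 22 °C (4.68 ± 0.24, adjusted p = 6.64e-11). WT had 4.42, 3.9 and 8.46 TPM at recovery and 0.22, 0.35 and 0.29 TPM at 22 °C. WRKY50 had the reverse order of genotypes, with 10, 8.55 and 7.18 TPM in prmt5 and 33.3, 27.5 and 31.7 TPM in WT at recovery, a rise over 22 °C of 2.54 ± 0.15, adjusted p = 4.46e-10 in prmt5 and 3.97 ± 0.15, adjusted p = 1.74e-11 in WT. WRKY46 was the largest recovery change of WT, at 70.9, 56.2 and 72.2 TPM against 1.64, 1.42 and 1.19 TPM at 22 °C (4.798 ± 0.12, adjusted p = 6e-13). In prmt5 it reached 71.6, 71.99 and 62.3 TPM at recovery, and the genotypes overlapped (0.05 ± 0.12, adjusted p = 0.734).

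**Figure D3:**
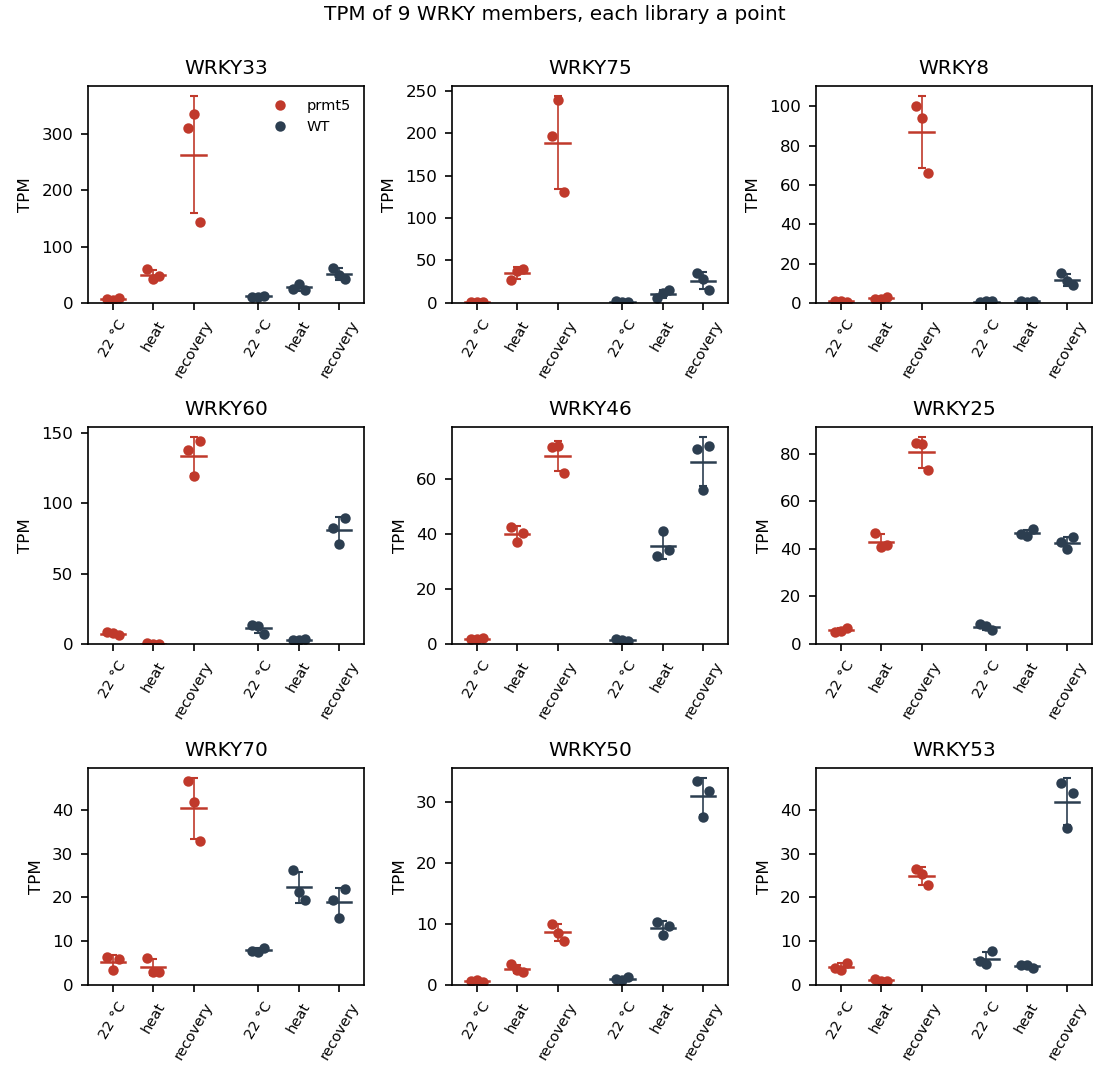
TPM of 9 members in each library (points; bar and whiskers, mean ± SD, n = 3), prmt5 in red on the left and WT in dark blue on the right, at 22 °C, heat and recovery. WRKY33, WRKY75, WRKY8 and WRKY60 are highest in prmt5 at recovery, WRKY46 is alike in both genotypes, and WRKY50 and WRKY53 are higher in WT at recovery.

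The group IIa trio moved apart at heat and together at recovery. WRKY18, WRKY40 and WRKY60 share the same branch of the family and act in salicylic acid and abscisic acid responses, partly as repressors. WRKY18 stood at 7.36, 7.37 and 6.73 TPM in prmt5 at 22 °C, 83.8, 81.7 and 67.2 TPM at heat and 209.9, 196 and 173 TPM at recovery. In WT it stood at 12.1, 12.2 and 15.3 TPM at 22 °C, 81.2, 108 and 111 TPM at heat and 97.2, 83.5 and 72.9 TPM at recovery. WRKY18 rose at heat in both genotypes (3.26 in prmt5, 2.83 in WT), and its change from heat to recovery passed in prmt5 (1.31 ± 0.14, adjusted p = 3.75e-07) and not in WT (-0.24 ± 0.14, adjusted p = 0.139). WRKY40 had 1.06, 0.72 and 0.82 TPM in prmt5 at 22 °C, 6.23, 3.52 and 4.11 TPM at heat and 31.1, 36.02 and 18.3 TPM at recovery. In WT it had 1.68, 1.6 and 2.16 TPM at 22 °C, 8.49, 11.4 and 7.17 TPM at heat and 27.7, 21.9 and 15.9 TPM at recovery, so it rose at both steps. WRKY60, which had fallen at heat, stood at 138, 119 and 144 TPM in prmt5 and 82.2, 70.9 and 89.4 TPM in WT at recovery (4.02 ± 0.20, adjusted p = 5.16e-11 in prmt5 and 2.81 ± 0.20, adjusted p = 1.04e-08 in WT against 22 °C). The WRKY40 locus overlaps AT1G80850 on the opposite strand, which averaged 14.7 TPM in prmt5 and 17.5 TPM in WT at recovery.

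Against heat, recovery raised most of the family in both genotypes. In prmt5 46 of 55 members rose and 1 fell, where 43.7% of all tested genes rose and 28.7% fell, and in WT 38 rose and 2 fell, where 31.2% rose and 33.7% fell. The median change was 1.55 in prmt5 and 0.87 in WT, beside 0.21 and -0.03 over all tested genes. WRKY60 had the largest change in both genotypes (6.79 ± 0.20, adjusted p = 3.41e-13 in prmt5, 4.41 ± 0.20, adjusted p = 4.91e-11 in WT). WRKY8 (4.700 in prmt5 and 2.85 in WT) and WRKY53 (3.68 and 2.99) were among the 5 largest rises in both. WRKY65 (3.83 ± 0.34, adjusted p = 4.82e-08) and WRKY6 (3.45 ± 0.24, adjusted p = 3.19e-09) completed them in prmt5, and WRKY49 (3.02 ± 0.36, adjusted p = 2.57e-06) and WRKY29 (2.56 ± 0.25, adjusted p = 2.65e-07) in WT. The falls from heat to recovery were AT1G64140, which has no WRKY domain, in both genotypes (-0.32 in prmt5, -0.996 in WT) and WRKY32 in WT (-0.63 ± 0.09, adjusted p = 1.88e-05). WRKY32, a group I factor that acts in light signalling, had 32.7, 33.8 and 30.7 TPM in WT at recovery and 47.95, 51.9 and 51.8 TPM in heated WT.

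Members known from leaf senescence gave different patterns. WRKY53, a group III factor that promotes senescence, fell at heat in prmt5 to 1.28, 0.81 and 0.97 TPM, against 3.96, 3.48 and 5.02 TPM at 22 °C (-1.35 ± 0.15, adjusted p = 6.91e-07), and had 4.61, 4.51 and 3.96 TPM in heated WT and 5.43, 4.85 and 7.67 TPM in WT at 22 °C. At recovery it rose to 26.6, 25.4 and 22.7 TPM in prmt5 and to 46.02, 35.8 and 43.7 TPM in WT. AT4G23800, which overlaps WRKY53 on the opposite strand, averaged 178 TPM at 22 °C, 5.40 TPM in heat and 25.8 TPM at recovery in prmt5, and 124, 33 and 78.8 TPM in WT. WRKY6, a group IIb factor of senescence and phosphate transport, had 202, 229.7 and 131 TPM in prmt5 and 55.8, 47.03 and 35.1 TPM in WT at recovery, against 7.92, 6.08 and 8.96 TPM in prmt5 and 11.8, 12.2 and 6.56 TPM in WT at 22 °C (4.42 ± 0.24, adjusted p = 1.41e-10 in prmt5, 2.09 ± 0.24, adjusted p = 1.71e-06 in WT). WRKY45, a group IIc factor that promotes age-triggered senescence, had 73.3, 75.4 and 51.6 TPM in prmt5 and 20.6, 17.3 and 16.3 TPM in WT at recovery, against 1.26, 1.27 and 0.89 TPM in prmt5 and 1.77, 2.69 and 0.92 TPM in WT at 22 °C (4.97 ± 0.23, adjusted p = 2.3e-11 in prmt5, 2.82 ± 0.23, adjusted p = 4.2e-08 in WT). WRKY57, a group IIc repressor of jasmonate-induced senescence, rose less, to 53.5, 41.1 and 34.6 TPM in prmt5 and 36.7, 38.1 and 27.1 TPM in WT (1.805 and 1.298).

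WRKY70 and WRKY54, related group III factors that hold back senescence and act in salicylic acid signalling, were low in heated prmt5. WRKY70 stood at 6.2, 2.95 and 2.94 TPM in heated prmt5 and 6.37, 3.42 and 5.9 TPM in prmt5 at 22 °C, which overlap, and rose in WT to 26.3, 21.3 and 19.5 TPM at heat, against 7.81, 7.42 and 8.54 TPM at 22 °C (1.38 ± 0.24, adjusted p = 6.81e-05). At recovery the order was turned round, with 46.5, 41.7 and 32.8 TPM in prmt5 and 19.5, 15.3 and 21.9 TPM in WT (1.06 ± 0.24, adjusted p = 0.00124). WRKY54 was lower by far, at 0.36, 0.09 and 0.05 TPM in heated prmt5 and 2.02, 1.3 and 1.89 TPM in prmt5 at 22 °C (-1.23 ± 0.26, adjusted p = 0.000402), and at 3.43, 1.23 and 0.99 TPM in heated WT and 2.36, 1.9 and 2.3 TPM in WT at 22 °C, which overlap. At recovery WRKY54 had 2.64 to 3.1 TPM in prmt5 and 1.8 to 3.79 TPM in WT, and did not pass against 22 °C in either genotype. Its fall at heat in prmt5 was -2.94 with a pseudocount of 0.1 and -0.38 with one of 5.

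At 22 °C a single member passed the test between the genotypes. Of the 55 tested members none was higher in prmt5 and 1 was lower, where 3.64% of all tested genes were higher and 11.3% lower. An unadjusted p under 0.05 in limma was found for 13 members, and the share of all tested genes at that level was not counted. The member called was WRKY18, at 7.36, 7.37 and 6.73 TPM in prmt5 and 12.1, 12.2 and 15.3 TPM in WT (-0.79 ± 0.14, adjusted p = 0.00162), with groups that did not overlap. WRKY33 did not pass, at 6.19, 4.73 and 8.42 TPM in prmt5 and 11.1, 10.9 and 12.1 TPM in WT (-0.76 ± 0.27, adjusted p = 0.0679). The count rested on single libraries: without WT library 3 at 22 °C it was 8 members lower and none higher, and without prmt5 library 3 at 22 °C 4 lower. It was 3 lower without library 3 of prmt5 at recovery and 3 lower without library 3 of WT at recovery, which enter through the shared spread, and 2 lower without prmt5 library 1 at heat or WT library 1 at recovery. The calls over all tested genes in these fits were not counted.

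At heat more members were lower in prmt5 than higher, as were genes in general. Of the 55, 10 were higher in heated prmt5 than in heated WT and 28 lower, where 19.9% of all tested genes were higher and 48.3% lower. The median difference was -0.54 among members and -0.34 over all tested genes, which median-ratio scaling brings to -0.01. The split was then 15 higher and 20 lower, and 16 and 18 after quantile normalization, so the excess of lower members depends on the scaling. Group IIc was the one with more members higher than lower, 7 against 4 of 15 tested, some of which may have passed the filter through high values in prmt5. WRKY28, a group IIc activator of salicylic acid synthesis, had 5.76, 7.17 and 11.7 TPM in heated prmt5 and 1.47, 0.82 and 1.36 TPM in heated WT (2.02 ± 0.24, adjusted p = 2.11e-06). WRKY75 (1.69 ± 0.35, adjusted p = 0.000553), WRKY24 (0.99 ± 0.22, adjusted p = 0.000991), WRKY48 (0.98 ± 0.19, adjusted p = 0.000315) and WRKY8 (0.95 ± 0.21, adjusted p = 0.00103) were also higher in prmt5, each with groups that did not overlap. They were picked for their large differences, and the share of all tested genes without overlap was not counted. WRKY24, a group IIc relative of WRKY43 and WRKY56, had 4.59, 5.22 and 6.01 TPM in heated prmt5 and 1.58, 1.97 and 3.04 TPM in heated WT.

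The lower members at heat were led by WRKY70 (-2.27 ± 0.24, adjusted p = 6.53e-07), WRKY60 (-1.66 ± 0.20, adjusted p = 2.66e-06), WRKY50 (-1.52 ± 0.15, adjusted p = 4.59e-07), WRKY7 (-1.42 ± 0.12, adjusted p = 7.33e-08) and WRKY53 (-1.41 ± 0.15, adjusted p = 1.1e-06). For WRKY50 the values were 3.37, 2.43 and 2.12 TPM in heated prmt5 and 10.3, 8.11 and 9.64 TPM in heated WT. All 5 stayed lower under both other scalings, with smaller differences after quantile normalization for WRKY50 (-0.86), WRKY7 (-0.93) and WRKY53 (-0.81). WRKY18 (-0.36 ± 0.14, adjusted p = 0.0302) did not hold, since its difference was 0.04 under median-ratio scaling and its call also ended at heat without prmt5 library 3 (-0.26) and without WT library 2 (-0.30) or 3 (-0.28). The calls of WRKY40 and WRKY45 as lower ended under both scalings (-0.50 and -0.44 with median-ratio scaling).

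At recovery the balance between the genotypes was the other way. Of the 55 members 23 were higher in prmt5 than in WT and 11 lower, where 27.8% of all tested genes were higher and 31.9% lower, and the median difference was 0.30 among members and -0.04 over all tested genes. WRKY75 (2.85 ± 0.35, adjusted p = 6.6e-06), WRKY8 (2.803 ± 0.21, adjusted p = 7.61e-08), WRKY51 (2.33 ± 0.24, adjusted p = 9.72e-07), WRKY33 (2.25 ± 0.27, adjusted p = 4.48e-06) and WRKY31 (2.01 ± 0.26, adjusted p = 8.65e-06) had the largest differences, none with overlapping groups. Members picked for large differences will seldom overlap, and the share of all tested genes without overlap was not counted. WRKY31, a close relative of WRKY6 in group IIb, had 12.8, 16.4 and 6.96 TPM in prmt5 and 2.41, 2.22 and 1.66 TPM in WT. Without library 3 of prmt5 at recovery 23 members were higher and 9 lower, and the differences were 3.09 for WRKY75, 2.99 for WRKY8, 2.38 for WRKY51, 2.64 for WRKY33 and 2.33 for WRKY31.

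WRKY49, WRKY50, WRKY44, WRKY35 and WRKY53 were lower in prmt5 at recovery. WRKY49, a group IIc factor, had 0.3, 0.18 and 0.71 TPM in prmt5 and 16.3, 11.5 and 3.81 TPM in WT (-2.88 ± 0.36, adjusted p = 7.12e-06), with a wide spread within WT and no overlap. With a pseudocount of 0.1 this difference was -4.34. WRKY44, known as TTG2 and needed for trichomes and seed coat, had 4.3, 4 and 6.53 TPM in prmt5 and 10.8, 9.63 and 11.8 TPM in WT (-1.002 ± 0.15, adjusted p = 5.3e-05). WRKY53 (-0.72 ± 0.15, adjusted p = 0.000916) had the same order. WRKY35 had 0.69, 0.57 and 0.35 TPM in prmt5 and 1.36, 3.01 and 0.79 TPM in WT (-0.75 ± 0.30, adjusted p = 0.0442), and its call ended under most of the other settings, among them both scalings and several left-out libraries (-0.43 without library 2 of WT at recovery).

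The genotypes' responses were also compared directly, as an interaction. For heat against 22 °C, 10 of the 55 had a more positive change in prmt5 than in WT and 18 a more negative one, where 18% of all tested genes had a more positive and 33.3% a more negative one. The split was 14 and 17 under median-ratio scaling and 15 and 14 after quantile normalization. For recovery against 22 °C, 23 had a more positive change in prmt5 than in WT and 4 a more negative one, where 26.1% of all tested genes had a more positive and 20.1% a more negative one (23 and 9 after quantile normalization). WRKY2, a group I factor of pollen and zygote polarity, and WRKY38, a group III factor known as a negative regulator of basal defence, were among the 5 most negative differences in the heat response (-1.27 ± 0.19, adjusted p = 6.01e-05 and -1.26 ± 0.28, adjusted p = 0.0016). WRKY2 had 3, 1.91 and 1.87 TPM in heated prmt5 and 5.58, 6.75 and 6.5 TPM in prmt5 at 22 °C, and 8.42, 6.73 and 7.25 TPM in heated WT and 6.72, 6.64 and 7.34 TPM in WT at 22 °C. AT5G56280, on the opposite strand at WRKY2, averaged 195 TPM in heated prmt5 and 37.2 TPM in prmt5 at 22 °C, and 108 TPM in heated WT and 33.9 TPM in WT at 22 °C. WRKY38 had 1.33, 0.87 and 1.28 TPM in heated prmt5 and 0.25, 0.22 and 0.47 TPM in prmt5 at 22 °C, and 3.18, 4.89 and 4.6 TPM in heated WT and 0.24, 0.6 and 0.14 TPM in WT at 22 °C. By group, all 3 tested members of IIa and 9 of 15 of IIc had a more positive recovery change in prmt5, beside 1 of 6 in IId and 1 of 6 in III. In IIc, WRKY8, WRKY24, WRKY43 and WRKY51 averaged under 1 TPM at 22 °C in both genotypes. They may have passed the filter through their recovery values. In IIa the call of WRKY40 was the least firm (0.94 ± 0.35, adjusted p = 0.0397), ending after quantile normalization (0.75) and without several single libraries (0.74 without library 3 of WT at recovery, 0.75 without library 2 of prmt5 at recovery). The call of WRKY60 ended with a pseudocount of 0.1 (1.26). WRKY75 (3.03 ± 0.50, adjusted p = 0.000191), WRKY33 (3.02 ± 0.38, adjusted p = 2.15e-05) and WRKY8 (2.72 ± 0.30, adjusted p = 8.48e-06) headed the more positive differences, and WRKY49 (-2.08 ± 0.51, adjusted p = 0.00365), WRKY50 (-1.43 ± 0.22, adjusted p = 9.15e-05), WRKY44 (-1.32 ± 0.22, adjusted p = 0.000208) and AT4G31805 (-0.96 ± 0.26, adjusted p = 0.00625) had the more negative ones. WRKY25 (1.21 ± 0.16, adjusted p = 3.17e-05) and WRKY26 (1.75 ± 0.35, adjusted p = 0.000934) had a more positive recovery change in prmt5, while their heat changes did not differ past the threshold (0.18 ± 0.16, adjusted p = 0.354 and 0.49 ± 0.35, adjusted p = 0.261). WRKY25 stood at 84.7, 84.1 and 73.04 TPM in prmt5 and 42.8, 39.9 and 44.8 TPM in WT at recovery, and WRKY26 at 59.6, 49.7 and 34.6 TPM in prmt5 and 14.4, 16.5 and 12.6 TPM in WT.

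**Figure D4:**
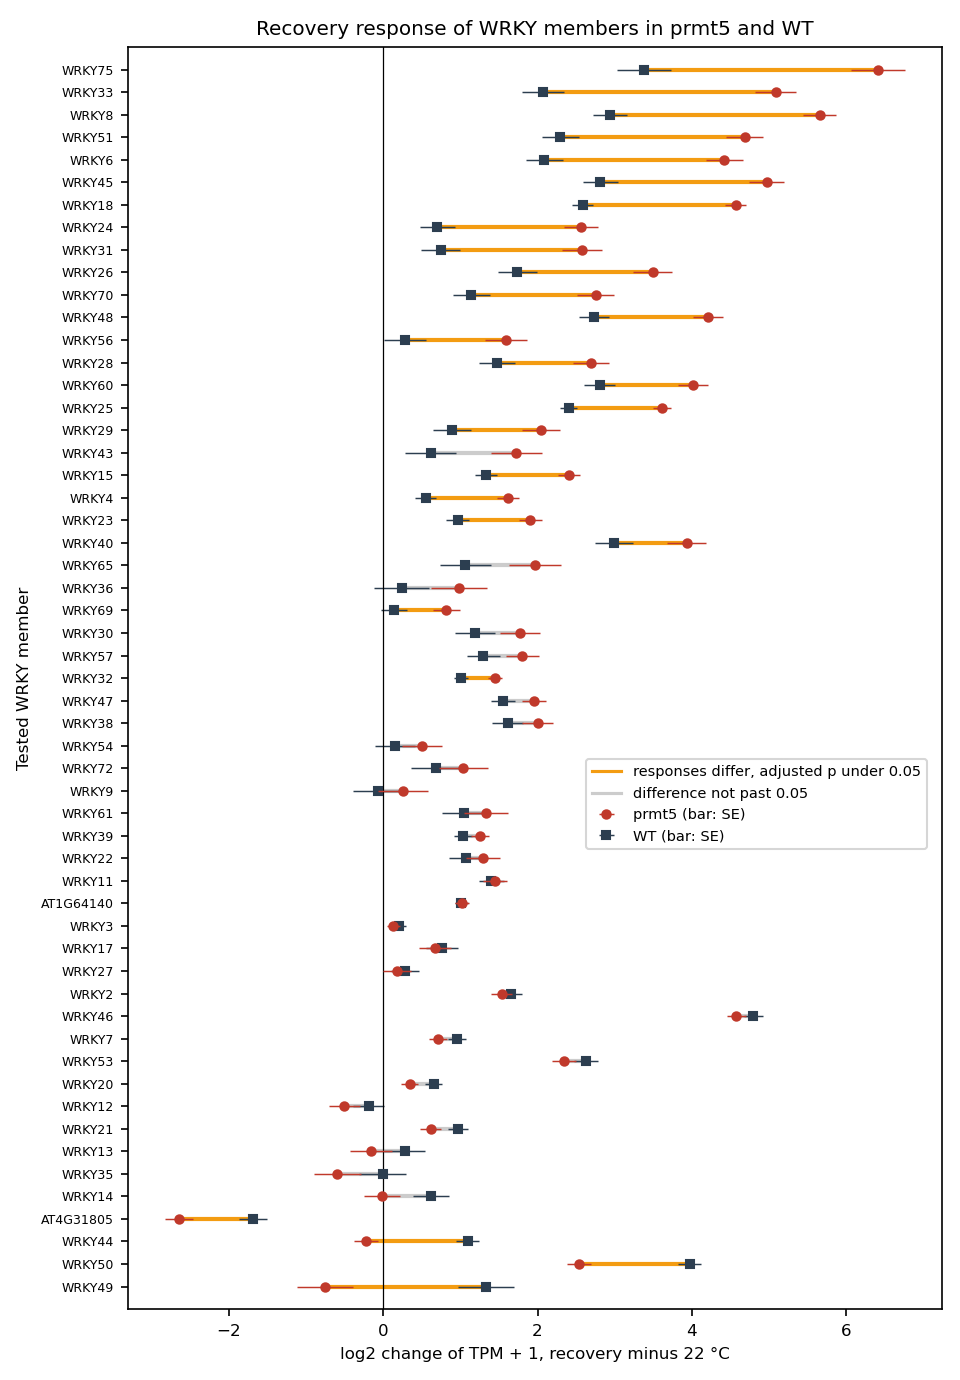
Log2 change of TPM + 1 from 22 °C to recovery for each of the 55 tested members (rows) in prmt5 (red circles) and WT (dark squares), with standard errors; an orange line joins the genotypes where their changes differ at an adjusted p under 0.05 and a grey line where they do not. Rows run from the largest excess in prmt5 at the top (WRKY75) to the largest excess in WT at the bottom (WRKY49).

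The 17 members that were not tested stayed low, with at most 2.73 TPM in any library (WRKY67 in heated WT), and 14 of them are named WRKY genes. AT3G56390 and AT5G46310 are listed at 0 in all libraries. Some of them, named after their values were seen, differed by condition: WRKY58 of group I had 2.68, 1.5 and 1.87 TPM in prmt5 and 0.67, 0.32 and 0.6 TPM in WT at recovery, WRKY64 and WRKY67 of group III had values above 0.2 TPM in all heat libraries and stayed under 0.5 TPM elsewhere, and WRKY34, known from pollen, had 0.19 to 0.31 TPM in heated prmt5, 0.16 to 0.53 TPM in heated WT and 0 in all 6 libraries at 22 °C. The tested members without the domain went their own way. AT1G64140 was the most abundant of all 72 at heat, with 108, 98.3 and 97.7 TPM in prmt5 and 148, 184 and 185 TPM in WT. AT4G31805 (POLAR) fell at heat (-2.85 ± 0.18, adjusted p = 5.1e-10 in prmt5, -1.58 ± 0.18, adjusted p = 9.32e-07 in WT) and stayed low at recovery, with 1.55, 1.27 and 0.87 TPM in prmt5 and 2.93, 3.32 and 1.78 TPM in WT, against 10.7, 15.1 and 13.1 TPM in prmt5 and 9.82, 9.69 and 12.5 TPM in WT at 22 °C. It overlaps AT4G31810 on the opposite strand, whose means for 22 °C, heat and recovery in turn were 21.5, 20 and 30 TPM in prmt5, and 23.5, 31.9 and 51.2 TPM in WT.

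Lists of genes around the family were counted with the same test, with no test of the lists themselves. Of 10 MAP kinase pathway genes, which lie upstream of WRKY proteins, 10 rose in prmt5 and 9 in WT at recovery against 22 °C, with none falling (background as above, 53.4% and 49.8% of all tested genes rising). MPK11 averaged 9.33 TPM in prmt5 at recovery and 0.133 TPM in prmt5 at 22 °C (3.14 ± 0.21, adjusted p = 1.29e-09), and 4.12 TPM in WT at recovery and 0.51 TPM in WT at 22 °C (1.76 ± 0.21, adjusted p = 2.22e-06). MPK3, which phosphorylates WRKY33, averaged 90.5 TPM in prmt5 and 45.9 TPM in WT at recovery (0.95 ± 0.11, adjusted p = 4.35e-06). At heat 7 of 10 rose and 2 fell in each genotype, where 45.5% of all tested genes rose and 36% fell in prmt5 and 49.8% rose and 25.7% fell in WT. One of the 10 is MEKK1, a kinase at the head of the cascade (1.48 in prmt5, 1.43 in WT).

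VQ-motif proteins, partners of WRKY domains, were represented by 31 genes, of which 23 were tested. At recovery against 22 °C 20 rose and 2 fell in prmt5, where 53.4% of all tested genes rose and 24.7% fell, and 17 rose and 1 fell in WT, where 49.8% rose and 17.3% fell. Heat against 22 °C gave an even split in prmt5, with 7 higher and 7 lower (45.5% and 36% of all tested genes). In WT it gave 7 higher and 5 lower (49.8% and 25.7%). AT2G22880 averaged 61.6 TPM in prmt5 and 6.2 TPM in WT at recovery (3.67 ± 0.60, adjusted p = 9.36e-05), and is listed at 0 at 22 °C. AT1G78410 averaged 111 TPM in prmt5 and 29.4 TPM in WT (1.88 ± 0.39, adjusted p = 0.000728). JAV1, a repressor of jasmonate defence, averaged 85.3 TPM in prmt5 at recovery and 3.89 TPM in prmt5 at 22 °C (4.14 ± 0.20, adjusted p = 4.81e-11). SIB2, a partner of WRKY33, fell at heat to 5.17 TPM in prmt5, against 68.3 TPM at 22 °C (-3.48 ± 0.18, adjusted p = 5.93e-11), and to 11.7 TPM in WT, against 54.6 TPM (-2.14 ± 0.18, adjusted p = 3.38e-08).

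Genes reported in the literature as bound or regulated by WRKY proteins numbered 22, of which 19 were tested. At recovery against 22 °C 16 rose and 1 fell in prmt5 (53.4% and 24.7% of all tested genes), and 12 rose and 2 fell in WT (49.8% and 17.3%). Heat against 22 °C gave 12 higher and 5 lower in prmt5 (45.5% and 36%), and 9 and 4 in WT (49.8% and 25.7%). The list includes the heat shock genes HSP101 and HSFA2, and also MBF1C, ZAT10 and ZAT12. Whether WRKY proteins had a part in the changes of the listed genes was not tested. From heat to recovery 13 rose and 3 fell in prmt5 (43.7% and 28.7%), and 8 rose and 7 fell in WT (31.2% and 33.7%). PAD3, which makes the last step of camalexin synthesis and is a WRKY33 target, averaged 879 TPM in prmt5 and 89.5 TPM in WT at recovery (3.38 ± 0.38, adjusted p = 2.85e-06), with 3.49 TPM in prmt5 and 5.49 TPM in WT at 22 °C. ACS2, an ethylene synthesis gene and another WRKY33 target, averaged 56.1 TPM in prmt5 and 2.87 TPM in WT (3.86 ± 0.31, adjusted p = 1.1e-07), and CYP71A13, of the camalexin pathway, 39.9 TPM in prmt5 and 5.93 TPM in WT (2.66 ± 0.48, adjusted p = 0.000213). FRK1, a flagellin-response kinase downstream of WRKY22 and WRKY29, had the other order, at 2.22 TPM in prmt5 and 20.1 TPM in WT (-2.57 ± 0.38, adjusted p = 3.09e-05). At heat PR1, a salicylic acid marker, averaged 0.167 TPM in prmt5 and 4.86 TPM in WT (-2.36 ± 0.23, adjusted p = 4.03e-07). Between the genotypes at 22 °C CAT2, a catalase, averaged 99.97 TPM in prmt5 and 326 TPM in WT (-1.696 ± 0.17, adjusted p = 2.71e-05), and ICS1, of salicylic acid synthesis, was the other gene of the list that passed (-0.37 ± 0.10, adjusted p = 0.0204).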

How the data were processed

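RNA-seq of 18 libraries in 6 groups of 3 was used. The authors' deposited table gives TPM per gene, made with RSEM on TAIR10 per the submitters' processing notes, with versions, strandedness and read depth not given in the sources used here. TPM keeps no depth, so no counting interval is given. The 6 deposited columns of group means were not used beyond a check (they differed from the means of the libraries by at most 3.3e-05).

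A filter of 1 TPM or more, averaged over the 18 libraries, chose the genes that entered a limma fit (3.58.1, R 4.3.3) of log2(TPM + 1) with 6 group means and a mean-variance trend, which has 12 residual degrees of freedom. Tests were two-sided, with Benjamini-Hochberg adjustment over all 21831 genes within each of 11 comparisons, at 0.05. The procedure was run on simulated data with normal noise, in which few genes changed and in 1 group only. In these data far more genes changed, so that run does not show how the procedure performs here. Members, lists and comparisons were chosen with earlier results of these data known. The genes named are those with the 5 largest changes in each direction per comparison among members past the threshold, and those with known roles in heat, senescence or group IIa; other members named were chosen after their values were seen; of each list, up to 4 genes with the largest changes could be named. Sequences were read from RefSeq TAIR10.1, where 37380 of 37559 compared genes (99.5%) had the length of an annotated transcript. Alternatives were other pseudocounts, filters, scalings, libraries left out, fewer groups in the fit, robust moderation and a replicate block.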

Additional observations from a re-analysis of the deposited data

Results flagged for a closer look

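The heat response (heat minus 22 °C) and the recovery response (recovery minus 22 °C) were compared between prmt5 and WT by limma's interaction term with Benjamini-Hochberg adjustment, and 19 differences past 0.05 are given, the 5 largest in each direction or all where fewer passed. Each value is prmt5 minus WT on the log2(TPM + 1) scale. The heat response of WRKY75 differed by 1.868, that of WRKY28 by 1.839, WRKY33 by 1.603, WRKY48 by 1.304 and WRKY24 by 1.111. It was lower, prmt5 minus WT, for WRKY70 (-1.714), WRKY7 (-1.493), AT4G31805 (-1.269), WRKY2 (-1.268) and WRKY38 (-1.261).

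The recovery response was higher in prmt5 than in WT for WRKY75 (3.028), WRKY33 (3.017), WRKY8 (2.720), WRKY51 (2.389) and WRKY6 (2.329). It was lower in prmt5 than in WT for WRKY49 (-2.085), WRKY50 (-1.434), WRKY44 (-1.317) and AT4G31805 (-0.963). Groups of 3 libraries are too small for a test of single outlying libraries.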

How the results depend on the processing

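The counts of members past the threshold, higher and lower together, stayed within 1.5 times their main value under every alternative run, except between the genotypes at 22 °C. These totals do not register a change of direction. In WT at heat 21 higher and 16 lower became 17 and 22 under median-ratio scaling. With 55 members tested, the larger totals could leave that range only by falling. Between the genotypes at 22 °C the count of 1 became 2 with a pseudocount of 0.1, a minimum mean of 5 TPM, median-ratio scaling, quantile normalization, the replicate block and members taken by the Pfam domain, and 3 when only those groups were fitted. Leaving out 1 library at a time gave 1 to 8 there. For the other counts it gave 45 to 52 (prmt5 heat against 22 °C), 33 to 38 (WT heat against 22 °C), 43 to 47 and 40 to 45 (recovery against 22 °C in prmt5 and in WT), 45 to 48 and 38 to 41 (recovery against heat in prmt5 and in WT), 36 to 39 and 29 to 36 (prmt5 against WT at heat and at recovery), and 24 to 31 and 25 to 30 (interactions for heat and recovery). Of 169 results for single genes, 20 lost the threshold under at least 1 alternative, and 1 of them reversed, the log2 change of WRKY18, prmt5 heat minus WT heat (0.0366 with median-ratio scaling); the cause was not tested. Calls of WRKY57 and WRKY6 between the genotypes at heat, of WRKY53 in heated WT and of WRKY60 between the genotypes at recovery were among them. Library numbers did not pair the samples: of 45 same-numbered pairs 8 had deviations correlated above 0.1, within -0.195 to 0.189. Apart from the genotype count at 22 °C (2), the replicate block ended 1 single-gene call, that of WRKY35 at recovery. The depth of the libraries is unknown, so how far low members are limited by it cannot be said.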
